A study of Mus musculus with 8 samples.

Results

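Axon guidance genes encode 4 systems of secreted or membrane-bound ligands and their cell surface receptors: ephrins with Eph receptors, semaphorins with plexins, netrins with Dcc and Unc5 receptors, and Slits with Robo receptors. Their mRNAs were compared on whole-transcript Affymetrix gene arrays between 4 preparations of quiescent and 4 of reverted mouse hepatic stellate cells. The genes were taken by symbol, as all members of these families with a probe set that carries a single gene symbol, plus Dcc. This gave 66 of the 19938 genes tested, namely 13 Eph receptors, 8 ephrins, 20 semaphorins, 9 plexins, 4 netrins, 5 netrin receptors (Dcc and 4 Unc5 genes), 3 Slits and 4 Robos. Ephb2 is not analysed here.

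Stellate cells are the retinoid-storing pericytes of the liver sinusoid, and they turn into matrix-producing myofibroblasts during liver injury. All 8 preparations came from male Balb/c mice kept under the same housing, without a transgene named in the labels, and were sorted on retinoid autofluorescence after density centrifugation. The quiescent group came from normal mice aged 18 weeks. The reverted group came from mice given CCl4 (carbon tetrachloride, a liver toxin) at 0.5 µl per g body weight, 4 times at a rate of 2 per week, and left for 45 days afterwards. The labels give the age of the reverted group as 16 weeks in one sentence and as 18 weeks in another. Whether each array represents one animal or pooled animals is not stated, so p-values measure the spread between these preparations only. In a sorted population, a changed share of cells that carry an mRNA and a changed amount of that mRNA per cell cannot be told apart.

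Guidance receptors read the presence of their ligand on a neighbouring cell or in the matrix and pass it to the actin cytoskeleton, so that a growth cone or a migrating cell turns, stops or retracts. Ephrins stay on the membrane and signal by contact, semaphorins act through plexins with neuropilins as co-receptors for the secreted class 3, netrins attract through Dcc and repel through Unc5, and Slits repel through Robo. The same systems steer cell migration, vessel growth and tissue boundaries outside the nervous system. Stellate cells share several genes with neural tissue, among them the glial filament gene Gfap and the neurotrophin receptor gene Ngfr.

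Of 9 measured stellate markers, each lay at or above percentile 62.3 of the scale formed by the mean log2 values of all genes, and their mean per array was 13.15 to 13.20 in quiescent and 13.04 to 13.10 in reverted cells. Of these, 9 had a lower mean in reverted cells, and Gfap was called (-0.49, limma adjusted p = 0.0182). The 7 macrophage markers lay between percentiles 10.8 and 34.7 and the 5 measured cholangiocyte markers between 6.24 and 43.4. A lower mean in reverted cells was found for 6 of the 7 and 4 of the 5. Their median changes were -0.05 and -0.08, and 0 were called. Of 9 hepatocyte markers, 9 had a higher mean in reverted cells and 0 were called. Their mean per array ran from 8.53 to 9.71 in quiescent and from 9.34 to 9.95 in reverted cells. The mean of 10 markers of mesothelium and portal fibroblasts was 7.59 to 7.67 in quiescent and 7.79 to 8.04 in reverted cells. Wt1 (1.39) and Dpt (1.69) were called up, while 6 of the 10 had a lower mean and the median change of the list was -0.09. The 5 markers of activated cells ran from 8.68 to 9.25 and from 9.22 to 9.71. Of these, 5 had a higher mean with an unadjusted p under 0.05, and Lox was called (1.05, limma adjusted p = 0.00519). The 8 endothelial markers ran from 8.26 to 8.52 and from 8.39 to 8.88. A higher mean in reverted cells was found for 7 of them, with a median change of 0.22, and 0 were called. The 6 measured markers of Schwann cells and nerve ran from 7.97 to 8.04 in quiescent and from 7.88 to 8.04 in reverted cells. Of the 6, 5 had a lower mean and 0 were called, with a median change of -0.07. The 16 immediate early genes, which respond to handling of cells, ran from 12.59 to 12.86 and from 12.69 to 12.85. The part of these other cell types in the results was not tested, apart from the adjustments for hepatocyte markers and immediate early genes given with the genes they touch.

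The reverted preparations carried more mRNA of the ephrin receptor Epha3 and of the transmembrane semaphorin Sema5a than the quiescent ones. They carried less of the netrin receptor Dcc and of the semaphorin 4D receptor Plxnb1. In limma with Benjamini-Hochberg adjustment over all genes, 2 of the 66 genes rose, 2 fell and 62 did not pass an adjusted p of 0.05. Over all genes the called share was 0.712%, with 0.527% up and 0.186% down, against 6.06% of the guidance genes. The 4 changes belong to 4 different families, with 1 among 35 ligand genes and 3 among 31 receptor genes. The median log2 change (reverted minus quiescent) was -0.04 over the 66 genes and -0.01 over all genes. Changes of the guidance genes ran from -0.65 to 0.89. An unadjusted p under 0.05 was found for 19 of the 66 genes and for 16.0% of all genes. A lower mean in reverted cells was found for 40 of the 66 and for 53.6% of all genes. The groups did not overlap in 15 of the 66, with 4 higher and 11 lower in reverted cells. Over all genes 4.64% were separated upwards and 4.09% downwards. For 58 of the 62 genes that did not pass, the 95% interval of the change stayed within 1.5-fold in both directions. Epha2, Epha4, Sema4a and Plxna4 were the other 4, so a change of 1.5-fold or more is compatible with their data.

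**Figure D1:**
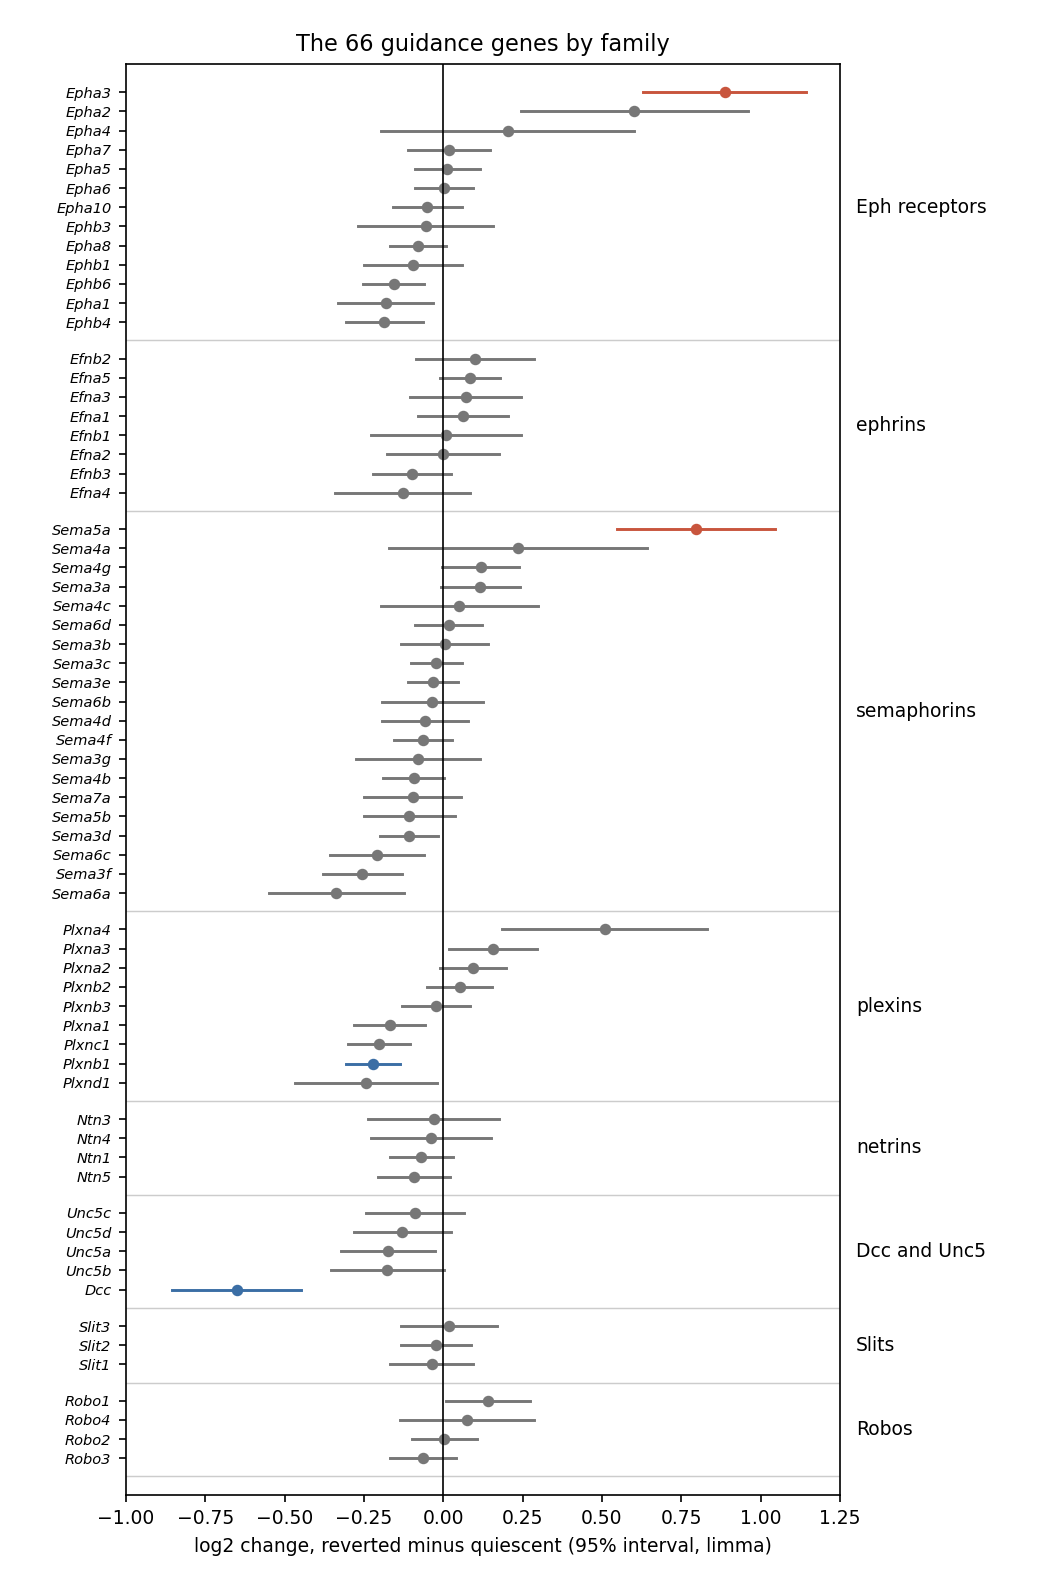
Log2 change (reverted minus quiescent, x axis) of each of the 66 guidance genes, grouped by family, with a point for the estimate and a line for its 95% interval from limma (n = 4 arrays per group). Red marks the called rises Epha3 and Sema5a, blue the called falls Dcc and Plxnb1, and grey the 62 genes that did not pass.

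Epha3, a receptor tyrosine kinase of the A class with high affinity for ephrin-A5, had log2 values of 8.91, 8.29, 8.46 and 8.57 in quiescent arrays 1 to 4. In reverted arrays 1 to 4 it had 9.44, 9.37, 9.41 and 9.56. The lowest reverted value lay above the highest quiescent value, that of quiescent array 1, and the reverted arrays were closer together (SD 0.08) than the quiescent ones (SD 0.26). The means were 8.56 ± 0.26 (SD, n = 4) and 9.44 ± 0.08 (SD, n = 4), a 1.85-fold rise with a log2 change of 0.89 (SE 0.11, 95% interval 0.63 to 1.14, limma adjusted p = 0.0111). Epha3 passed the test under each of the 18 alternatives tried, with adjusted p between 0.00434 and 0.0494.

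Sema5a, a membrane semaphorin with thrombospondin repeats that binds plexin B3, stood at 8.49, 8.42, 8.53 and 8.94 in quiescent arrays 1 to 4. Its reverted values were 9.47, 9.39, 9.22 and 9.49. The groups did not overlap, although quiescent array 4 was closer to the reverted arrays than the other quiescent arrays were. The means of 8.59 ± 0.23 and 9.39 ± 0.12 (SD, n = 4 each) differed by 0.80 (SE 0.11, 95% interval 0.55 to 1.04, limma adjusted p = 0.0163), or 1.74-fold. Without quiescent array 1 the adjusted p was 0.0572 and without reverted array 4 it was 0.0672, at log2 changes of 0.76 in both fits.

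Dcc, the receptor through which netrin 1 attracts axons, had log2 values of 7.32, 7.25, 7.46 and 7.68 in quiescent arrays 1 to 4. The reverted values were 6.83, 6.66, 6.85 and 6.77, so that each reverted array lay below each quiescent one. The mean went from 7.43 ± 0.19 to 6.78 ± 0.085 (SD, n = 4 each), a change of -0.65 (SE 0.09, 95% interval -0.85 to -0.45, limma adjusted p = 0.0161), or 1.57-fold lower. The probe set lay at percentile 35.7 of the scale, near the macrophage markers (10.8 to 34.7), where differences can be understated. Whether its signal stood above background was not tested. Without reverted array 4 the adjusted p was 0.0672. Adjusting for the mean of the hepatocyte markers gave a change of -0.56 and an adjusted p of 0.0758.

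Plxnb1, the plexin that binds semaphorin 4D, had nearly equal values in quiescent arrays 1 to 4, at 11.54, 11.53, 11.53 and 11.52. The reverted values were 11.24, 11.36, 11.32 and 11.32. The difference was small, with means of 11.53 ± 0.01 and 11.31 ± 0.05 (SD, n = 4 each) and a log2 change of -0.22 (SE 0.04, 95% interval -0.31 to -0.14, limma adjusted p = 0.037), or 1.17-fold lower. This call was the least stable of the 4. Of the 8 fits that leave out an array, the one without quiescent array 4 kept it (adjusted p = 0.0478), and the other fits gave adjusted p between 0.058 and 0.122. It was also lost with each array centred on its median (0.0635) and after adjustment for the mean of hepatocyte markers (0.103) or of immediate early genes (0.0731).

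**Figure D2:**
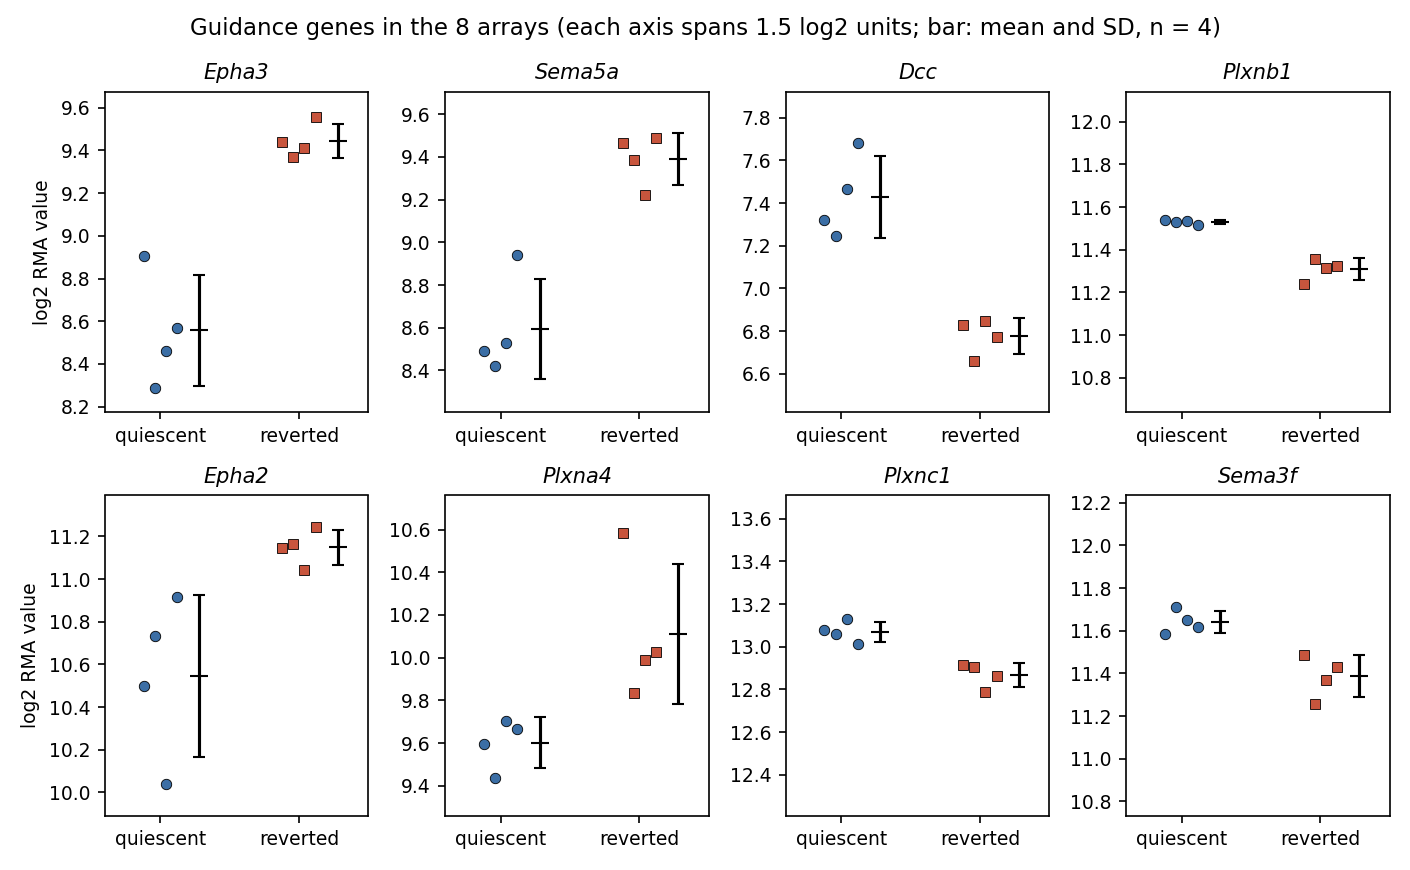
Log2 RMA values (y axis, the same span in each panel) of 8 guidance genes in the 4 quiescent (blue circles) and 4 reverted (red squares) arrays, with the mean and SD beside each group. The upper row holds the 4 called genes, and the lower row Epha2, Plxna4, Plxnc1 and Sema3f, whose groups also do not overlap but whose adjusted p was between 0.084 and 0.156.

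The 250 bases before the annotated transcription start, upstream of mRNAs that changed, are shown for the called genes Epha3, Sema5a and Plxnb1. These stretches come from the RefSeq promoter table (build GRCm38.p6), and none is shown for Dcc. Each is written 5′ to 3′ on the gene's strand. Capitals mark matches, on either strand, to 7 short motifs that were searched: the TATA box TATAAA, the NF-Y box CCAAT, the GC box GGGCGG, the AP-1 site TGACTCA, the TEAD motif GGAATG, the E-box CAGCTG and the homeodomain motif TAATTA. Epha3 lies at chr16:63864176-63864425 (minus strand), Sema5a at chr15:32244563-32244812 (plus strand) and Plxnb1 at chr9:109095186-109095435 (plus strand).
Epha3: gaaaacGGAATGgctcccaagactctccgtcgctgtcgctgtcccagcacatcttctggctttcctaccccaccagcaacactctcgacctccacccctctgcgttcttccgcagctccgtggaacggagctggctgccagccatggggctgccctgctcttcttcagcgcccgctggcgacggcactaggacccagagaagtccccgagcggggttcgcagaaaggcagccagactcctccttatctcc
Sema5a: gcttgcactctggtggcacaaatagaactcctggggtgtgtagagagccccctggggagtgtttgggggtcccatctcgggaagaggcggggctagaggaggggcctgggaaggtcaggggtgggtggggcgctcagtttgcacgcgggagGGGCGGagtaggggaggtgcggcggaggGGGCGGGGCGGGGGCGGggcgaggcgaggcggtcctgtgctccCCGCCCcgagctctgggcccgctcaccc
Plxnb1: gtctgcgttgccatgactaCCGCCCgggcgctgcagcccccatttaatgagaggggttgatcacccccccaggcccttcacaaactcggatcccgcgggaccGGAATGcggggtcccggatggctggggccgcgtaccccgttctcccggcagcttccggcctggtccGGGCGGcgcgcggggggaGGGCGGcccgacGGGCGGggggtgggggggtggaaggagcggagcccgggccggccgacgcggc

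The windows of Epha3, Sema5a and Plxnb1 hold 16, 17 and 30 CpG dinucleotides, against a median of 6 over the 32851 windows of the table and of 15 over the 72 windows of the 56 guidance genes listed there. Sema5a has 5 GC boxes, of which 3 form a single run without a gap, and Plxnb1 has 4, while the Epha3 window holds 0. The GC box occurs in 32.7% of all windows. The TEAD motif occurs once in the Epha3 and once in the Plxnb1 window, against 12.6% of all windows. The other 5 motifs have 0 matches in these 3 windows, and their shares of all windows are 12.4% for the TATA box, 33.8% for the NF-Y box, 4.46% for the AP-1 site, 13.0% for the E-box and 4.84% for the homeodomain motif. Epha3 and Sema5a, which both rose, share no motif of this set. A match is a run of letters and not a measured binding site.

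Among Eph receptors, which are receptor tyrosine kinases activated by ephrins on an adjacent cell, 1 of 13 rose and 0 fell. Of all genes 0.527% were called up and 0.186% down. The groups did not overlap in 6 of them, with 2 higher and 4 lower in reverted cells, where 4.64% of all genes were separated upwards and 4.09% downwards. Epha2, the Eph receptor best known from epithelia, had quiescent values of 10.50, 10.73, 10.04 and 10.91 and reverted values of 11.14, 11.16, 11.04 and 11.24. The spread among the quiescent arrays (SD 0.38) was wide against that of the reverted ones (SD 0.08), and the change of 0.60 (SE 0.16, 95% interval 0.24 to 0.96) did not pass (limma adjusted p = 0.137). Epha4, which binds ephrins of both classes, had a change of 0.20 (limma adjusted p = 0.582) with overlapping groups.

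The 4 measured EphB receptors, which mainly bind the transmembrane ephrin-B ligands, had a lower mean in reverted cells as deposited. This held after quantile normalization and median centring, and 0 of the 4 passed. As deposited, 53.6% of all genes had a lower mean and 0.712% passed. Ephb4, the partner of ephrin-B2 in veins, had 11.69, 11.89, 11.79 and 11.80 in quiescent and 11.68, 11.63, 11.59 and 11.52 in reverted arrays, a narrow separation with a change of -0.19 (SE 0.05, limma adjusted p = 0.164). Ephb6, which lacks kinase activity, changed by -0.16 (SE 0.04, limma adjusted p = 0.147), from 8.31 ± 0.06 to 8.15 ± 0.04 (SD, n = 4 each). Epha1 and Epha8, both A class receptors, had separated groups with changes of -0.18 and -0.08 and adjusted p of 0.242 and 0.346. The remaining 7 Eph receptors lay between -0.10 and 0.20, and Epha7, at percentile 97.4 of the scale, had a change of 0.02 (95% interval -0.11 to 0.15).

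None of the 8 ephrin genes passed the test in limma, and 0 had an unadjusted p under 0.05. Over all genes these shares were 0.712% and 16.0%. Their changes lay between -0.13 and 0.10. Efna5, which encodes a high-affinity ligand of Epha3, had quiescent values of 12.22, 12.18, 12.31 and 12.20 and reverted values of 12.29, 12.28, 12.33 and 12.35. These groups overlapped and differed by 0.08 (SE 0.04, 95% interval -0.01 to 0.18, limma adjusted p = 0.356). Efnb2, the ligand of Ephb4, differed by 0.10 (95% interval -0.09 to 0.28, adjusted p = 0.566) and Efnb1, a ligand of several EphB receptors, by 0.01 (95% interval -0.23 to 0.24). Efnb3 was the only one of 8 ephrins with separated groups, where 4.64% of all genes were separated upwards and 4.09% downwards. It had 8.07 to 8.12 in quiescent and 7.82 to 8.05 in reverted arrays, and its change of -0.10 did not pass (adjusted p = 0.396). Efna4 differed by -0.13 (adjusted p = 0.515).

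Semaphorins had 1 called rise, Sema5a, among 20 genes, with 0 falls, where 0.527% of all genes were called up and 0.186% down. The other gene of class 5, Sema5b, had a change of -0.11 (95% interval -0.25 to 0.04, adjusted p = 0.424) with overlapping groups. Of the 20, 13 had a lower mean in reverted cells, or 65.0% against 53.6% of all genes, and the family's median change was -0.05. Sema3f, a secreted ligand that signals through neuropilin 2, had the next smallest p, with quiescent values of 11.59, 11.71, 11.65 and 11.62 and reverted values of 11.49, 11.26, 11.37 and 11.43. The groups did not overlap, and the change of -0.25 (SE 0.06) missed the threshold (limma adjusted p = 0.085). With array weights its adjusted p was 0.0498.

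Sema6a and Sema6c are membrane semaphorins whose class binds A type plexins. Sema6a had 9.15, 9.38, 9.48 and 9.50 in quiescent and 9.09, 8.82, 9.16 and 9.10 in reverted arrays, and the groups overlapped by a single array on each side. Its change of -0.34 (SE 0.10, 95% interval -0.55 to -0.12) did not pass (limma adjusted p = 0.156). Sema6c, at 10.92 ± 0.06 in quiescent and 10.71 ± 0.13 in reverted arrays (SD, n = 4 each), had separated groups and a change of -0.21 (adjusted p = 0.188). Sema3d, a secreted semaphorin at percentile 98.2 of the scale, had a change of -0.11 (95% interval -0.20 to -0.02, adjusted p = 0.248) with separated groups. Sema6d, at percentile 99.5, differed by 0.02 (95% interval -0.09 to 0.12), and a difference so near the top of the scale can be compressed. The 15 semaphorins beyond Sema5a, Sema3f, Sema6a, Sema6c and Sema3d had changes between -0.11 and 0.23.

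Plexins, the semaphorin receptors, held 1 called fall (Plxnb1) among 9 genes (0.186% of all genes). An unadjusted p under 0.05 was found for 6 of the 9 (16.0% of all genes). Their changes went both ways, with 4 higher and 5 lower means, and the sign of their median (-0.02) turned after quantile normalization. Plxnc1, the receptor of the membrane-anchored semaphorin 7A, had 13.08, 13.06, 13.13 and 13.01 in quiescent and 12.91, 12.91, 12.79 and 12.86 in reverted arrays. Each reverted array lay below each quiescent array, and the change of -0.20 (SE 0.04) missed the threshold (limma adjusted p = 0.084). It passed with an intensity trend and robust variance (0.0364) and with array weights (0.0433).

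Plxna4, a receptor for class 3 semaphorins with neuropilin and for class 6 semaphorins without it, had 9.60, 9.43, 9.70 and 9.67 in quiescent arrays. In reverted arrays it had 10.59, 9.84, 9.99 and 10.03, with array 1 well above the rest. The groups did not overlap, and the change of 0.51 (SE 0.14, 95% interval 0.18 to 0.83) did not pass (limma adjusted p = 0.156). Plxna1 differed by -0.17 (adjusted p = 0.169), with reverted values of 12.35 to 12.51 against quiescent values of 12.51 to 12.66, and these groups overlapped by a margin that 2 decimals do not show. Plxnd1, the semaphorin 3E receptor known from vessels, differed by -0.24 (adjusted p = 0.279) with overlapping groups. Plxnb3, the plexin that binds semaphorin 5A, had a change of -0.02 (95% interval -0.13 to 0.08), beside the rise of its ligand gene.

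Ligand and receptor values can be read side by side for the pairs known to bind. Beside the fall of Plxnb1, its ligand gene Sema4d differed by -0.06 (95% interval -0.19 to 0.08, adjusted p = 0.651). Sema7a, which encodes the ligand of plexin C1, differed by -0.10 (adjusted p = 0.492) at percentile 25.5 of the scale. Sema3e, the ligand gene of Plxnd1, differed by -0.03 (95% interval -0.11 to 0.05) at percentile 24.5 of the scale. The neuropilin genes, which encode co-receptors of class 3 semaphorins, were at -0.12 for Nrp1 (separated groups, adjusted p = 0.255) and at -0.01 for Nrp2 (adjusted p = 0.961, percentile 29.4). None of these 3 ligand genes and neither neuropilin gene passed the test. Sema7a, Sema3e and Nrp2 lay among the positions of the macrophage markers (10.8 to 34.7). Whether their signal stood above background was not tested.

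**Figure D3:**
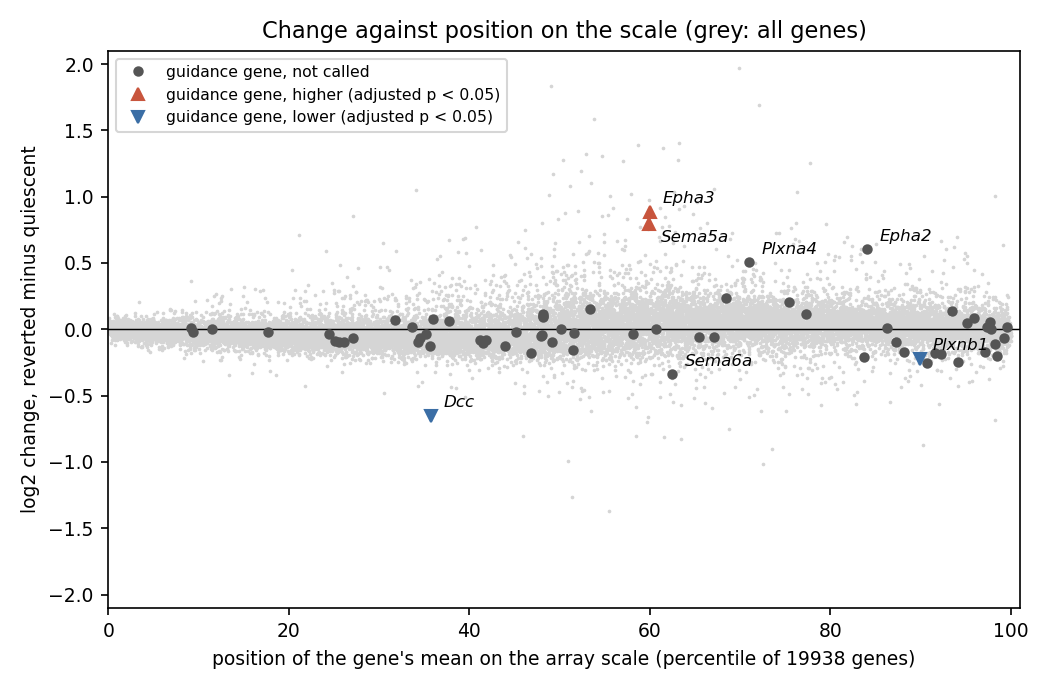
Log2 change (reverted minus quiescent, y axis) against the percentile of the gene's mean on the array scale (x axis) for all genes tested (grey) and the 66 guidance genes (dark points, triangles for called genes). Epha3 and Sema5a lie near percentile 60, Dcc at 35.7 and Plxnb1 at 90.0, where its small change was called.

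Netrins are laminin-related secreted guidance cues. None of the 4 netrin genes passed in limma (0.712% of all genes) and 0 had an unadjusted p under 0.05 (16.0% of all genes). Their changes lay between -0.09 and -0.03. Ntn1, the classical ligand of Dcc, was at percentile 99.3 of the scale, with 13.40, 13.47, 13.44 and 13.45 in quiescent and 13.44, 13.40, 13.38 and 13.27 in reverted arrays. The groups overlapped and differed by -0.07 (95% interval -0.17 to 0.03, adjusted p = 0.459). Ntn5, Ntn4 and Ntn3 differed by -0.09, -0.04 and -0.03, with adjusted p between 0.39 and 0.885.

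All 5 netrin receptor genes of the families studied had a lower mean in reverted cells, as deposited and under both other scalings. Dcc was the only one that passed. As deposited, 53.6% of all genes had a lower mean and 0.186% were called down. Dcc, Unc5d and Unc5c lay at percentiles 35.7, 35.6 and 25.1 of the scale. Among the macrophage and cholangiocyte markers, also low on the scale, 6 of 7 and 4 of 5 had a lower mean. Unc5a, a receptor of the repulsive response, had 11.16, 11.41, 11.38 and 11.30 in quiescent and 11.26, 11.07, 11.14 and 11.07 in reverted arrays, and quiescent array 1 lay among the reverted ones. Its change was -0.17 (SE 0.07, limma adjusted p = 0.249). Unc5b, known from endothelium, differed by -0.18 (95% interval -0.35 to 0.00, adjusted p = 0.314), Unc5d by -0.13 (adjusted p = 0.374) and Unc5c by -0.09 (adjusted p = 0.529). Neo1, which encodes neogenin, the closest relative of Dcc and also a netrin receptor, differed by -0.05 (95% interval -0.18 to 0.09, adjusted p = 0.714) with overlapping groups.

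**Figure D4:**
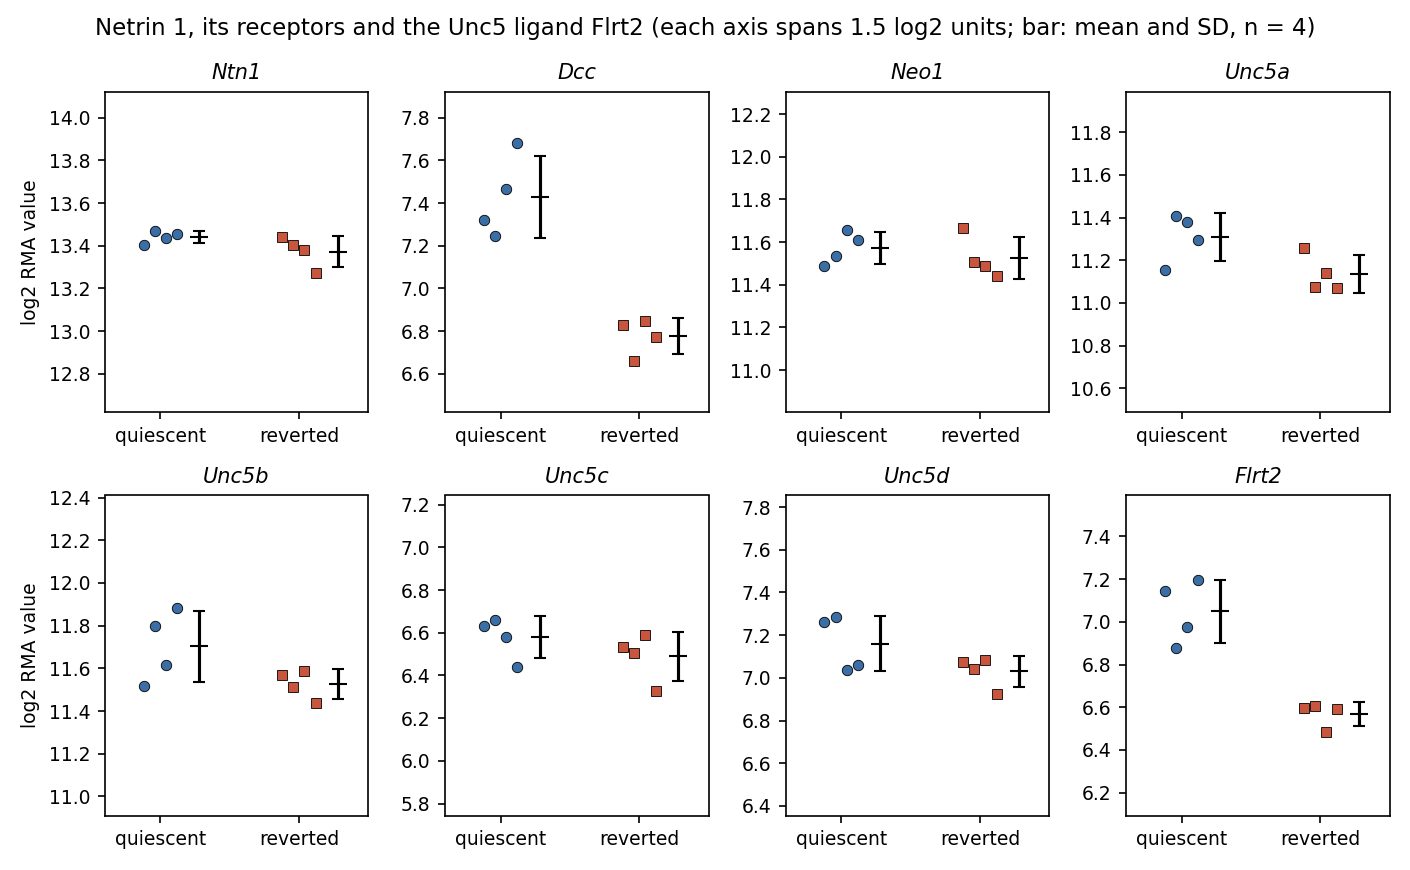
Log2 RMA values (y axis, the same span in each panel) of the netrin 1 gene Ntn1, the receptor genes Dcc, Neo1 and Unc5a to Unc5d, and Flrt2, which encodes a further Unc5 ligand, in the 4 quiescent (blue circles) and 4 reverted (red squares) arrays, with mean and SD. The groups are apart for Dcc and Flrt2 and overlap in the other 6 panels.

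Slits and Robos form the repulsive pair that keeps axons from crossing the midline. In limma 0 of 3 Slit and 0 of 4 Robo genes passed (0.712% of all genes). Of the 7, Robo1 had an unadjusted p under 0.05 (16.0% of all genes). The Slit genes lay between percentiles 17.7 and 35.2 of the scale and changed by -0.04 (Slit1), -0.02 (Slit2) and 0.02 (Slit3), values whose sign turned under some alternatives. Robo1 had 11.71, 11.68, 11.87 and 11.80 in quiescent and 12.00, 11.82, 11.96 and 11.84 in reverted arrays, which overlap. The change was 0.14 (SE 0.06, 95% interval 0.01 to 0.27, limma adjusted p = 0.293). Robo2 stood at 12.72 ± 0.07 and 12.73 ± 0.04 (SD, n = 4 each), with a 95% interval of the change from -0.10 to 0.11. Robo3 differed by -0.06 (adjusted p = 0.511) and Robo4, known from endothelium, by 0.07 (adjusted p = 0.707), with overlapping groups.

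A list of 32 other guidance ligands, receptors and co-receptors had 1 rise and 1 fall in limma, or 6.25% called against 0.712% of all genes. Ptprf, which encodes the receptor tyrosine phosphatase LAR, rose from 8.67, 8.72, 8.72 and 8.67 in quiescent to 9.13, 9.04, 9.11 and 9.22 in reverted arrays, a change of 0.43 (SE 0.04, limma adjusted p = 0.00427). It passed under each of the 18 alternatives. Flrt2, whose protein is a repulsive ligand of Unc5 receptors, fell from 7.14, 6.88, 6.98 and 7.20 to 6.60, 6.61, 6.49 and 6.59, a change of -0.48 (SE 0.07, limma adjusted p = 0.0206). Both genes had fully separated groups, and the Flrt2 probe set lay at percentile 30.5 of the scale. Flrt2 did not pass when quiescent array 1 (0.0676) or reverted array 2 (0.0508), 3 (0.0831) or 4 (0.0703) was left out, or after adjustment for the mean of hepatocyte markers (0.0645). Lingo1, a Nogo receptor partner, had separated groups and a change of -0.23 (adjusted p = 0.0537). It passed under 4 of the 18 alternatives, among them quantile normalization (0.0215) and median centring (0.0363). Of the 32 genes 25 had a lower mean (22 after quantile normalization), where 53.6% of all genes did, with a median change of -0.06 against -0.01 over all genes.

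Of 44 measured cytoplasmic effectors, the proteins that carry guidance signals from the receptors to actin, 0 passed in limma (0.712% of all genes). An unadjusted p under 0.05 was found for 13, or 29.5% against 16.0% of all genes. The smallest p values belonged to Enah, an actin filament elongation factor (0.56, SE 0.11, adjusted p = 0.0537), Kalrn (0.27, adjusted p = 0.0707), the Src family kinase gene Fyn (0.44, adjusted p = 0.0794) and the actin oxidase gene Mical2 (0.38, adjusted p = 0.119). Enah had 8.25, 8.08, 8.19 and 8.56 in quiescent and 8.66, 8.77, 8.99 and 8.88 in reverted arrays, without overlap. Enah passed under 6 of the 18 alternatives, with array weights (0.0168) among them, and Kalrn and Fyn under 3 each, so the count of 0 depends on the fit. Groups were separated in 3 of the 44 effectors upwards and in 3 downwards, where 4.64% of all genes were separated upwards and 4.09% downwards. The median change of the list was -0.03.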

How the data were processed

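The deposited table gives log2 expression values of 35556 probe sets on 8 arrays, made by the authors with RMA (background correction, normalization across arrays and summary of probes per probe set) per the submitters' processing notes. Settings of RMA, a genome build and array batches are not given in the sources used here. Symbols came from the platform annotation, and 21789 probe sets carry a single symbol. Entrez identifiers of 21698 matched the RefSeq table (GRCm38.p6). Each of the 19938 genes was represented by its brightest probe set, taken as the largest average of all 8 arrays, with no filter on dim genes. Of the 66 guidance genes, 5 had several probe sets, whose changes had the same sign.

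Reverted and quiescent arrays were compared by lmFit and eBayes of limma 3.58.1 (R 4.3.3), 2-sided, with no covariate and Benjamini-Hochberg adjustment over 19938 genes. Genes under an adjusted p of 0.05 were called. Intervals are 95% limma intervals. The steps were tested on simulated data with normal noise for each gene and 200 genes changed. Of genes changed by 0.58 log2, 85% were called, and of those changed by 1, 93%. Of the calls, 6.81% were false. The simulated noise was independent between genes and held no effect of array or cell composition. The text names called genes, the 4 smallest p of each family and list, and guidance genes of the 8 families whose groups do not overlap. Other genes are given as examples of ligand and receptor pairs or of positions on the scale, chosen after their values were seen. The genes, lists and alternatives were chosen with earlier results of these data known. Python 3.11.15, pandas 2.3.3 and matplotlib 3.10.9 prepared tables and plots. The number of arrays limits the precision.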

Additional observations from a re-analysis of the deposited data

Results flagged for a closer look

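In 3 of the 68 groups of 4 arrays examined for the named guidance genes, 1 array stood apart from the other 3 by the gap-to-range ratio of Dixon's test at its 95% critical value, where chance flags about 1 in 20 groups, or 3.4 here. Quiescent array 4 had an Epha1 value of 8.08 against 7.86 to 7.89 in the other quiescent arrays (ratio 0.887). Reverted array 4 had an Efnb3 value of 7.82 against 8.04 to 8.05 in the other reverted arrays (ratio 0.958). Reverted array 2 had an Efnb2 value of 7.82 against 8.05 to 8.08 (ratio 0.888).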

How the results depend on the processing

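The 4 called guidance genes kept their direction under each of the 18 alternatives (17 for Dcc, which the filter on the lower 50% removes), and 25 of 42 named genes kept both their direction and their side of the threshold throughout. Called guidance genes numbered 2 (Epha3 and Sema5a, 0 falls) after adjustment for the mean of hepatocyte markers (the hepatocyte covariate) and 1 to 4 with an array left out, with 1 to 2 rises and 0 to 2 falls. The count of falls was 1 after median centring, without the lower 50% of genes, after adjustment for immediate early genes and with the replicate block, and 4 with array weights. The median change over the guidance genes was -0.082 with the hepatocyte covariate, and -0.06 to -0.01 with an array left out. Over all genes, 219 were called after quantile normalization, 306 with array weights, 83 with the hepatocyte covariate and 54 to 247 with an array left out. The replicate numbers of the labels pair nothing visible (same-number correlations of -0.15 to 0.08), and with the replicate block 63 genes were called, among them 3 of the 4 guidance genes. Plxnb1 (limma adjusted p = 0.129) and Flrt2 (0.0573) did not pass with the block. Signs turned for genes near 0: Slit1 (0.0047) and Slit2 (0.016) after quantile normalization, Slit3 (-0.021) and Robo2 (-0.0054) with array weights, Robo2 (-0.0017) after median centring, and Slit3 (-0.058), Robo4 (-0.085) and Robo2 (-0.047) with the hepatocyte covariate. With an array left out, changes ran from -0.083 to 0.0044 for Slit1, -0.062 to 0.0103 for Slit2, -0.046 to 0.051 for Slit3, -0.108 to 0.037 for Ntn3, -0.106 to 0.0013 for Ntn4 and -0.026 to 0.029 for Robo2. The cause was not tested.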
